A study of Mus musculus with 17 samples.

Results

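The 10 receptors described here are those that macrophages use to take up sugars, lipids, haemoglobin and dying cells, followed in a leukaemia in which Mt1 had been targeted. They are Mrc1, Clec7a and Clec4n (lectin receptors), Msr1, Marco, Cd36, Cd163 and Cd68 (scavenger receptors and the lysosomal protein usually grouped with them), and Mertk and Axl (receptor kinases for dying cells). The 10 genes were listed by symbol out of 56305 gene identifiers, and all 10 were found once in each count table. The list, and the attention given below to samples 7-9 and 10-12, were chosen from measured levels in these same tables, so the order of the samples is a description and was not tested. Some of the genes differed sharply between samples and others, such as Cd68, were nearly level. The samples low in Mrc1 did not share a group: it was about 13 to 17 CPM (counts scaled to a common library total, the usual CPM) in 1 control and 1 Mt1ko sample and 172 to 314 CPM in the other 4.

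The mice were C57BL/6, they had acute myeloid leukaemia, and the RNA was taken from their bone marrow. Every library, control and Mt1ko alike, carried the heterozygous Dnmt3a R878H and Npm1cA alleles, and the Mt1ko libraries carried in addition a CRISPR-Cas9 knock-down of Mt1, the gene of the metal-binding protein metallothionein 1. What was read here does not state the age of the mice, how Cas9 and its guide were delivered or whether cells of a host were present. The 8 control and 9 Mt1ko libraries, all described as technical replicates, were joined by the authors into 6 sums of 2 or 3 libraries: control 1-3, 7-9 and 14-15, and Mt1ko 4-6, 10-12 and 16-18. Nothing says that these came from separate mice, so the p-values below speak only of the spread among the 6 sums, and that may be technical. The sums held 64247249 to 106407001 counts.

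Mt1 itself was 347.5 to 471.3 CPM in the control libraries and 41.8 to 87.2 CPM in all Mt1ko libraries except library 6, labelled Mt1ko, at 326.2 CPM. Libraries 10 to 12 also stood apart in quality: 21.9% to 30.2% of their counts were mitochondrial ribosomal RNA and they had 11548 to 13174 genes detected. In libraries 7 to 9 the share was 6.03% to 11.2% with 14823 to 17739 genes, and in the other 11 libraries it was 4.58% to 6.31% with 15949 to 17159 genes. A level in CPM is lowered where such RNA takes more of the library, and ratios between genes of a library are therefore given beside the levels. In bulk RNA, fewer cells of a type and less RNA per cell cannot be told apart.

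Macrophages recognise their cargo through receptors of several unrelated families. C-type lectins bind sugars of microbes and of the body's own glycoproteins, scavenger receptors bind modified lipoproteins and other polyanions, and receptor kinases of the TAM family bind bridging proteins that coat dying cells. In bone marrow, macrophages clear dying cells and the nuclei that erythroblasts expel, and monocytes gain several of these receptors as they mature.

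The samples had transcripts of monocytes and macrophages, while most, but not all, of the listed genes typical of macrophages that reside in marrow were near 0. Adgre1, which encodes the macrophage marker F4/80, was 188 to 298 CPM, and Csf1r, on which the survival of macrophages depends, was 208.7 to 463.5 CPM. Of the 17 macrophage markers, 7 averaged at least 10 CPM and 8 under 1 CPM. C1qa, C1qb, C1qc, Vcam1, Slc40a1 and Spic, all typical of resident macrophages, stayed at or under 0.43 CPM in every sample, and Timd4 and Vsig4 had no count. Siglec1, also a marker of resident marrow macrophages, was 16.4 to 23.1 CPM, and Hmox1, which degrades haem, was 2159 to 4254 CPM. Of the dendritic cell markers Clec9a and Cd209a had no count, Itgax was 2.86 to 13.7 CPM and Flt3 0 to 5.36 CPM, both with samples 7-9 and 10-12 as the highest pair. Endothelial markers are of interest because sinusoidal endothelium also makes Mrc1 and Cd36. Of these Cdh5, Emcn and Tek had no count, Stab2 was at most 0.10 CPM and Lyve1 at most 0.66 CPM, while Pecam1, which other blood cells make too, was 75.8 CPM in sample 10-12 and 14.1 to 23.8 CPM in the other 5.

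Mrc1 (ENSMUSG00000026712; GRCm38 chromosome 2, 14229392 to 14332057, plus strand, protein-coding, with the microRNA gene Mir511 inside it) encodes the mannose receptor, which binds sugars ending in mannose and takes them into the cell. It was 314.0, 12.9 and 172.1 CPM in control samples 1-3, 7-9 and 14-15, and 259.8, 17.0 and 241.6 CPM in Mt1ko samples 4-6, 10-12 and 16-18. Control 7-9 and Mt1ko 10-12 were low and the groups overlapped. The highest sample was 24.4-fold the lowest, and the lowest of the other 4 samples was 10.1-fold the higher of that pair. Only 4 of the 8205 genes with a mean of at least 10 CPM and a count in that pair had a wider gap of this kind: Phgdh, Chil3, Ctsg and Cyp26b1, which were named after their values were seen. Each single library showed it: Mrc1 was 4.46 to 20.2 CPM in libraries 7 to 12 and 70.9 to 351.0 CPM in the other 11. Library 15 was the lowest of those 11, at 70.9 CPM, while library 14 of the same sum held 264.8 CPM.

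The promoters of Mrc1 and Cd163, which were low in the same samples, and of Cd68, which was nearly level, are shown to let their letters be compared. They are the 250 bases before the start site in RefSeq (build GRCm38.p6), 5′ to 3′, and capitals mark the core bound by the myeloid factor PU.1 (GAGGAA, searched on both strands, so that TTCCTC is the same core on the other strand).
Mrc1, chr2:14229164-14229413, plus strand: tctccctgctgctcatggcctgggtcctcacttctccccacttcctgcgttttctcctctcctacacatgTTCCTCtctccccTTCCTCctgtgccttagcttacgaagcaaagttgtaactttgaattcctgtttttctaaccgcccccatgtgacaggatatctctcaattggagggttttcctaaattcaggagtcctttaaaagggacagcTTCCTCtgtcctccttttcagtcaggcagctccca
Cd163, chr6:124304401-124304650, plus strand: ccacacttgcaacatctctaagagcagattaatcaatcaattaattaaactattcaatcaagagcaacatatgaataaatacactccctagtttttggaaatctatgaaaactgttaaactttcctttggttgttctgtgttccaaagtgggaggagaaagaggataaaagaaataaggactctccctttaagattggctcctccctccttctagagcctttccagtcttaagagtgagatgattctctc
Cd68, chr11:69666171-69666420, minus strand: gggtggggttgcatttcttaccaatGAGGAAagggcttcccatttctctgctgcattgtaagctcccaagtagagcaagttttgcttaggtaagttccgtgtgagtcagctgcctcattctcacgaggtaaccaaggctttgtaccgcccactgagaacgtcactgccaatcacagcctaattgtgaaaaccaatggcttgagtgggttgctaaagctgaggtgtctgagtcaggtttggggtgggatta
The Mrc1 window held the PU.1 core 3 times, beginning 180, 167 and 35 bases before the start site, Cd68 held it once, and these letters were not in the Cd163 window. Among 27025 promoter windows of this length, 23.1% held the core. The letters TTNCNNAA, a short form of the C/EBP motif, were in all 3 windows, as in 36.9% of all windows, and no match overlapped a PU.1 core. The MAF half-site TGCTGAC was in none of the 3, and 3.72% of all windows held it. Of the 10 receptors, 8 had a RefSeq promoter entry; Msr1 and Clec4n had none. The gene of PU.1 itself, Spi1, was 91.0 to 152.5 CPM.

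Clec7a (ENSMUSG00000079293; chromosome 6, 129461591 to 129472779, minus strand) encodes Dectin-1, the receptor for the beta-glucans of fungi. The annotation used (GENCODE vM21) gives it the type polymorphic pseudogene. It was 25.4, 20.5 and 19.7 CPM in control samples 1-3, 7-9 and 14-15, and 31.5, 17.2 and 25.9 CPM in Mt1ko samples 4-6, 10-12 and 16-18. Its highest sample was 1.83-fold its lowest, and libraries 7 to 12 (10.3 to 31.8 CPM) overlapped the other 11 (15.0 to 35.6 CPM).

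Clec4n (ENSMUSG00000023349; chromosome 6, 123229843 to 123247021, plus strand) encodes Dectin-2, which binds mannose-rich fungal polysaccharides and signals through the adaptor Fcer1g. It was 77.2, 31.4 and 118.0 CPM in control and, in the order used above, 92.8, 52.4 and 91.3 CPM in Mt1ko. Samples 7-9 and 10-12 were again the lowest. Libraries 7, 8, 10 and 11 held 16.5 to 40.9 CPM and library 9 held 65.5 CPM, below the 69.4 to 171.1 CPM of the other 11, and library 12, at 78.6 CPM, lay among them. Library 15 held the highest value, 171.1 CPM, where library 14 held 69.4 CPM.

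Msr1 (ENSMUSG00000025044; chromosome 8, 39581685 to 39642673, minus strand) encodes the class A macrophage scavenger receptor, which takes up modified lipoproteins. It was 750.9, 346.3 and 627.4 CPM in the control samples 1-3, 7-9 and 14-15, and 734.0, 226.7 and 609.0 CPM in the Mt1ko samples 4-6, 10-12 and 16-18. Samples 7-9 and 10-12 lay below the other 4, whose lowest was 1.76-fold the higher of the pair. The libraries did not overlap: libraries 7 to 12 held 194.9 to 390.3 CPM and the other 11 held 581.2 to 763.8 CPM.

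Marco (ENSMUSG00000026390; chromosome 1, 120474538 to 120505024, minus strand), another class A receptor that binds bacteria, was nearly absent. It had 9 counts in library 17, labelled Mt1ko, and 0 in the other 16 libraries; 0 counts in a sum allow up to 0.028 to 0.047 CPM, by the limit of 3 counts, which covers counting error only. The gene was not tested because its counts were too low.

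Cd36 (ENSMUSG00000002944; chromosome 5, 17781690 to 17888801, minus strand), a class B scavenger receptor that also carries fatty acids into cells, was scarce. It was 0.71, 1.20 and 0.34 CPM in control samples 1-3, 7-9 and 14-15 and 0.25, 0 and 1.54 CPM in Mt1ko samples 4-6, 10-12 and 16-18, from 0 to 143 counts. Sample 7-9 was not low here, and most of its counts (102 of 118) came from library 8.

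Cd163 (ENSMUSG00000008845; chromosome 6, 124304656 to 124330527, plus strand), the receptor for complexes of haemoglobin and haptoglobin, was also scarce. It was 5.75, 0.78 and 1.60 CPM in control and, in the order used above, 4.10, 0 and 4.51 CPM in Mt1ko. Sample 7-9 held 77 counts (exact 95% binomial interval 0.62 to 0.98 CPM) and sample 10-12 none (upper limit of 3 counts, 0.032 CPM), against 103 to 543 counts in the other 4. Libraries 7 to 12 (0 to 1.77 CPM) overlapped the rest (1.24 to 7.47 CPM) through control libraries 8 and 15.

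Cd68 (ENSMUSG00000018774; chromosome 11, 69664213 to 69666153, minus strand), a lysosomal glycoprotein used as a general marker of macrophages, was nearly level. It was 249.3, 284.4 and 229.5 CPM in control samples 1-3, 7-9 and 14-15 and 284.3, 218.9 and 251.9 CPM in Mt1ko samples 4-6, 10-12 and 16-18. The highest sample was 1.3-fold the lowest, and samples 7-9 and 10-12 were the highest and the lowest of the 6.

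Mertk (ENSMUSG00000014361; chromosome 2, 128698956 to 128802894, plus strand) and Axl (ENSMUSG00000002602; chromosome 7, 25757273 to 25788705, minus strand) encode kinases that bind bridging proteins such as Gas6 on dying cells. Mertk was 0.71, 0.14 and 0.26 CPM in the control samples 1-3, 7-9 and 14-15, and 1.09, 0 and 0.74 CPM in the Mt1ko samples 4-6, 10-12 and 16-18, from at most 116 counts. Axl was 0.15, 0.66 and 1.03 CPM in control against 0, 0 and 0.25 CPM in Mt1ko, from at most 66 counts, and 13 of 17 libraries had none. The libraries of 1 sum differed as much as the sums did: Mertk was 0.04, 1.70 and 0.27 CPM in libraries 1, 2 and 3. Of the 5 receptors that averaged under 10 CPM, all were at 0 in sample 10-12, the sample in which the fewest genes were detected; the part of that in these zeros was not tested.

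**Figure D1:**
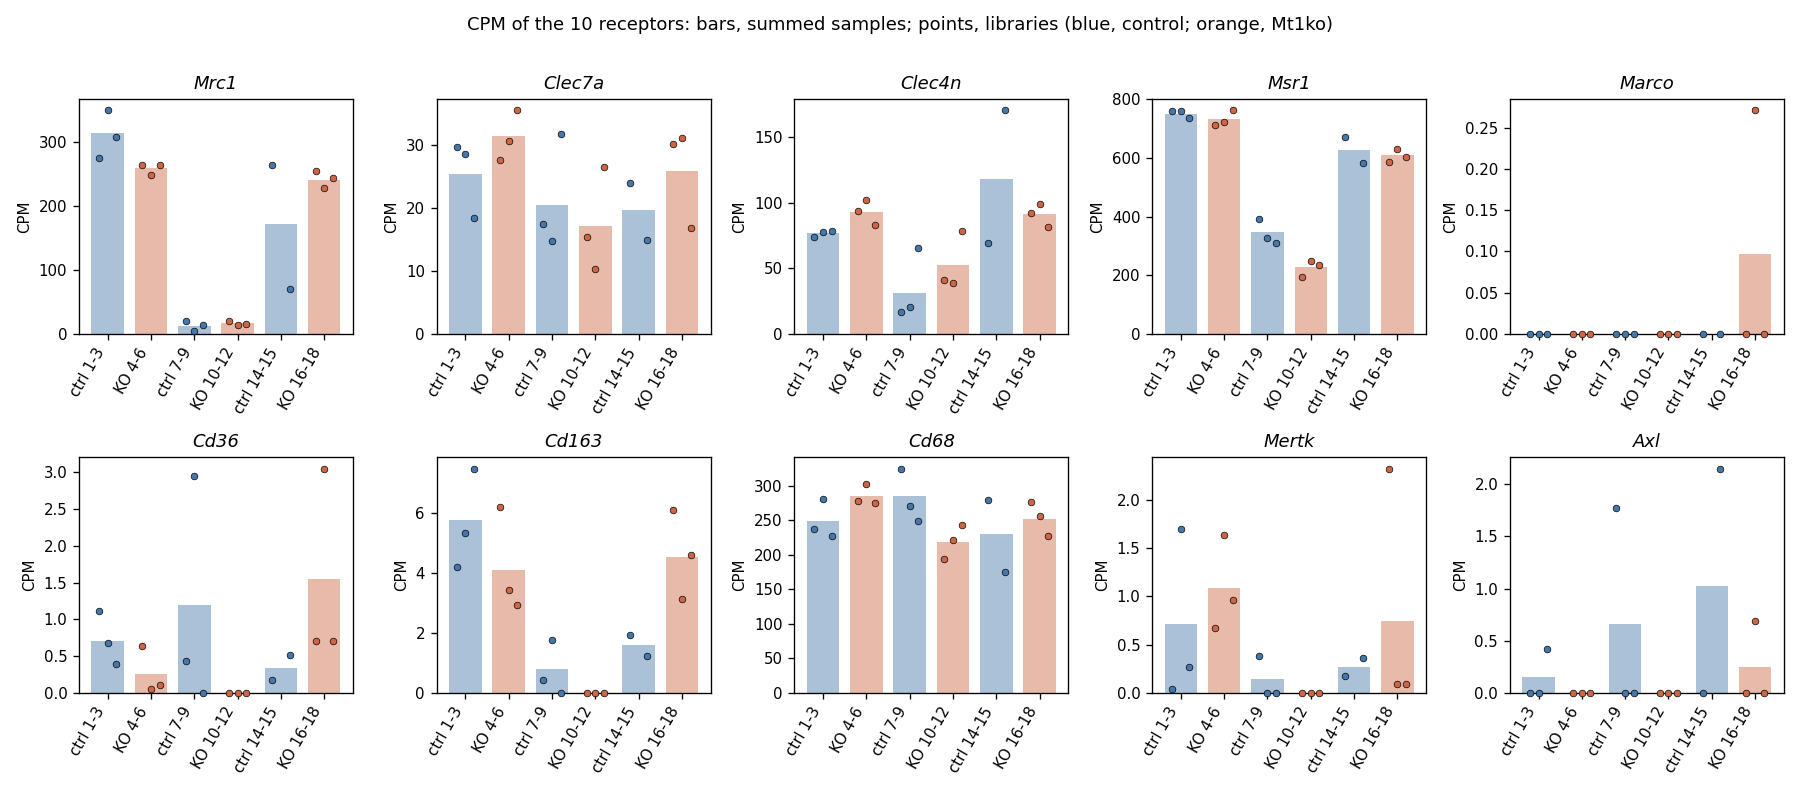
CPM of the 10 receptors (vertical axes start at 0 and differ between panels) in the 6 summed samples (bars) and the 17 libraries (points), control in blue and Mt1ko (KO) in orange. Mrc1 is at 12.9 and 17.0 CPM in samples 7-9 and 10-12 and at 172.1 to 314.0 CPM in the other 4, while Cd68 lies between 218.9 and 284.4 CPM in all 6.

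Per kilobase of all annotated exons of a gene, Cd68 had the highest value of the 10 in every sample. This length, 1257 bases for Cd68 and 6344 for Msr1, joins the exons of every annotated transcript. It can exceed the length of the transcript made, which was not measured, so the order of the genes depends on it. In CPM per kilobase of exons, Cd68 was 174.2 to 226.2, Msr1 35.7 to 118.4, Clec4n 22.1 to 83.1, Mrc1 2.02 to 49.3 and Clec7a 6.51 to 12.0 over the 6 samples. The ranges of Msr1, Clec4n and Mrc1 overlapped, as did those of Mrc1 and Clec7a. In sample 10-12 Clec4n (36.9) was above Msr1 (35.7), and in samples 7-9 and 10-12 Clec7a (7.76 and 6.51) was above Mrc1 (2.02 and 2.66). Cd163, Cd36, Mertk, Axl and Marco were all at or under 1.05.

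Set against Cd68 within each library, which frees the comparison from library scaling, the receptors differed from each other. The counts of Mrc1 per count of Cd68 were 1.26, 0.91, 0.75 and 0.96 in samples 1-3, 4-6, 14-15 and 16-18, and 0.045 and 0.077 in samples 7-9 and 10-12. Msr1 gave 3.01, 2.58, 2.73 and 2.42 counts per Cd68 count in the same 4 samples and 1.22 and 1.03 in 7-9 and 10-12. Clec4n per Cd68 was 0.11 in sample 7-9 and 0.24 in 10-12, against 0.31 to 0.51 in the other 4. Its libraries overlapped: the 0.51 of sample 14-15 joins 0.249 in library 14 with 0.976 in library 15, and in the pair library 9 held 0.263 against 0.051 and 0.076 in libraries 7 and 8, and library 12 held 0.324. Clec7a per Cd68 was 0.072 and 0.078, against 0.086 to 0.111. Its libraries overlapped too, at 0.047 to 0.128 in libraries 7 to 12 and 0.074 to 0.130 in the rest. Mrc1 was low relative to Msr1 as well, at 0.037 and 0.075 counts per Msr1 count in the pair and 0.27 to 0.42 in the other 4. These ratios show unequal levels between the genes and do not say that Cd68 was unchanged.

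**Figure D2:**
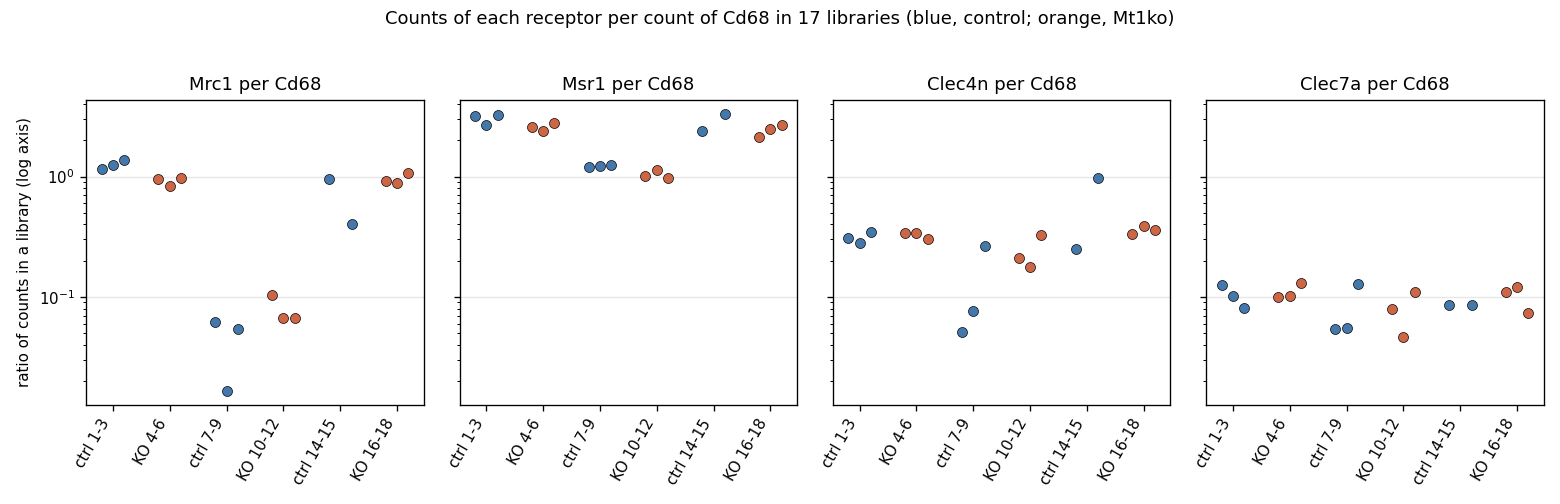
Counts of Mrc1, Msr1, Clec4n and Clec7a per count of Cd68 in each of the 17 libraries (log axis), grouped by summed sample, control in blue and Mt1ko (KO) in orange. For Mrc1, libraries 7 to 12 lie between 0.017 and 0.104 and the other 11 between 0.404 and 1.36.

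Counted over the list, samples 7-9 and 10-12 were the lowest pair of the 6 in 5 of the 9 receptors tested (Mrc1, Msr1, Cd163, Clec4n and Mertk), and 22.4% of all 16666 tested genes showed that order. The count was 5 receptors also after TMM scaling, where 20.1% of all genes showed it, and with mitochondrially encoded genes left out, where 16.2% did. Among genes with a mean of at least 10 CPM the share was 32.0%, so the order alone is common. In Mrc1 and Cd163, or 2 of 9, every other sample was also over 2-fold above both, against 3.28% of all tested genes. With mitochondrially encoded genes left out this held for Mrc1 alone, or 1 of 9, against 2.9% of all tested genes. No receptor had the pair as its highest, an order that 11.4% of tested genes had. The pair was singled out from these levels, and nothing follows from these counts about the list as a whole.

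No receptor was called different between Mt1ko and control, and the intervals given next show how large a difference that leaves possible. edgeR's quasi-likelihood test on 3 against 3 samples called 0 of the 9 tested receptors and 0% of all 16666 genes (171 genes had an unadjusted p under 0.05, 87 higher and 84 lower; limma-voom called 0, DESeq2 1, Mt1, on the same genes, and DESeq2 16 on all genes with a count, none of them a receptor). Mt1, the targeted gene, was itself not called by edgeR in this fit, so a gene left uncalled is not shown to be unchanged. No receptor had an unadjusted p under 0.05. In the fit, which is TMM-scaled, 6 of the 9 were higher and 3 lower (5 and 4 on mean CPM, where Cd68 turned), with a median log2 fold change of 0.10, where the median of all tested genes was -0.01. None of the receptors had groups that did not overlap, against 7.81% of all genes.

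Cd68 averaged 254.4 ± 27.8 CPM over the controls and 251.7 ± 32.7 CPM over Mt1ko (SD, n = 3 per group), and its log2 fold change in the TMM-scaled fit, 0.10, was of the opposite sign to these means and had a 95% interval from -0.20 to 0.41 (edgeR adjusted p = 1.00). Clec7a was 21.8 ± 3.1 and 24.9 ± 7.2 CPM, with a log2 fold change of 0.29 and an interval from -0.22 to 0.80 (edgeR adjusted p = 1.00). Mrc1 averaged 166.3 ± 150.7 and 172.8 ± 135.2 CPM, and the spread between samples left an interval from -2.46 to 2.65 around a log2 fold change of 0.10 (edgeR adjusted p = 1.00; exact two-sided permutation p = 0.9, where 3 against 3 cannot go below 0.1). Msr1 was 574.9 ± 207.3 and 523.2 ± 264.3 CPM (log2 fold change -0.06, interval -0.99 to 0.88), and Clec4n 75.6 ± 43.3 and 78.8 ± 22.9 CPM (0.16, interval -0.82 to 1.14). The scarce receptors were poorly bounded: the log2 fold change was 0.11 for Cd163 (interval -3.51 to 3.73), -0.30 for Cd36 (-4.15 to 3.55), 0.75 for Mertk (-3.21 to 4.71) and -2.84 for Axl (-7.63 to 1.96). Leaving out 1 sum gave 0.014 (without 4-6) to 1.64 (without 1-3) for Mertk, and -8.73 (without 16-18) to -2.24 (without 14-15) for Axl.

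**Figure D3:**
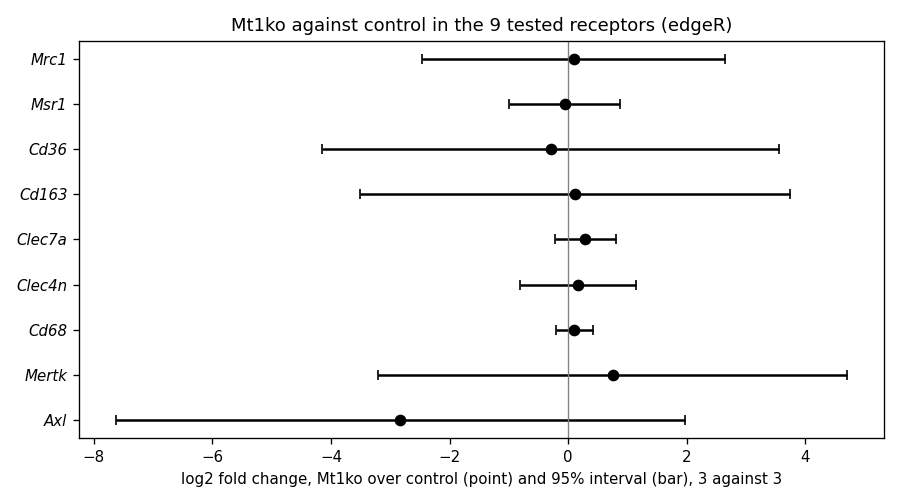
Log2 fold change of Mt1ko over control (points) with its 95% interval (bars) for the 9 receptors tested with edgeR on 3 against 3 summed samples. Every interval includes 0, and those of Cd68 and Clec7a are the narrowest.

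Leaving out samples 7-9 and 10-12, an alternative chosen after their values were seen, gave Mrc1 a log2 fold change of 0.07 and called no receptor. Mrc1 was lower in Mt1ko, with log2 fold changes of -0.46, -0.33 and -0.20, when sample 7-9, 4-6 or 16-18 alone was left out, and it was not called in any of these fits. The libraries also carried 3 second index sequences. With the first, Mrc1 was 4.46 to 351.0 CPM in 5 control libraries and 249.4 to 265.1 CPM in 3 Mt1ko libraries. With the second it was 13.6 to 264.8 CPM in 3 control libraries and 14.7 to 254.6 CPM in 4 Mt1ko libraries, and the third was carried by 2 Mt1ko libraries only. With the index as a covariate over 17 libraries the log2 fold change was -0.02.

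No gene of the wider set of uptake genes was called between Mt1ko and control either. Of 89 tested genes in 8 lists, 0 were called by edgeR (49 higher and 40 lower in the TMM-scaled fit, median log2 fold change 0.01), and 1, Pparg, had an unadjusted p under 0.05 (0.021; adjusted p = 1.00) at levels of at most 1.28 CPM. The split depended on the scaling: on mean CPM 24 of the 89 were higher and 65 lower, and with mitochondrially encoded genes left out 43 were higher. The split of all tested genes on these scales was not counted, so nothing follows from it about these lists. The splits below are from the fit, with the number higher on mean CPM beside them. Samples 7-9 and 10-12 were the lowest pair in 33 of the 89, or 37.1%. That order was found in 22.4% of all tested genes and 32.0% of those with a mean of at least 10 CPM. Every other sample was over 2-fold above both in 6 of the 89, or 6.74%, against 3.28% of all tested genes. Those 6 were named after their values were seen: Clec5a, Gas6, Fcgr1, Lgmn, Irf4 and Il4ra. Of these, Gas6, Fcgr1 and Irf4 averaged only 5.45, 4.39 and 4.75 CPM. The share of 1.35% among tested genes with a mean of at least 10 CPM is therefore not to be set against the 6.74%. The pair was singled out from measured levels, so these shares are a description.

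Among 11 tested scavenger receptors outside the 10, 8 were higher in Mt1ko (4 on mean CPM), and none was called. Lrp1, a large endocytic receptor, was the most abundant, at 7942 CPM in sample 7-9, 5178 CPM in 10-12 and 4285 to 5469 CPM in the other 4. Stab1, the clearance receptor stabilin, was 122.4 CPM in sample 10-12 and 219.4 CPM in 7-9, below the 270.3 to 344.5 CPM of the rest. Colec12, Cd14 and Scarb2 ranged over 570.4 to 779.4, 154.6 to 308.8 and 130.3 to 181.1 CPM.

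The other C-type lectins ordered the samples in different ways. Of 10 tested in Mt1ko against control, 8 were higher (4 on mean CPM), none called. Clec4d, which lies with Clec4n in the Dectin-2 family, was highest in the samples where Clec4n was lowest, at 506 and 433 CPM in 7-9 and 10-12 against 314.1 to 397.8 CPM. Clec5a was 154.9 and 120.8 CPM there against 329 to 364 CPM, and Clec4e, the receptor Mincle, 114.6 and 89.7 against 147.3 to 187.4 CPM. Clec4a2 (34.2 to 61.6 CPM), Mgl2 (29.7 to 63.5 CPM) and Siglec1 (16.4 to 23.1 CPM) varied less than Mrc1. Samples 7-9 and 10-12 were the lowest pair in 4 of the 10 (Clec4e, Clec5a, Mgl2 and Siglec1), against 22.4% of all tested genes. They were the highest pair in 1, Clec4d, against 11.4% of all tested genes. Of the 17 listed genes present in the tables, 6 had no count, among them Clec4f and the 3 Cd209 genes looked for.

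Of the signalling partners of the Dectins, 5 of 11 were higher in Mt1ko (3 on mean CPM), none called. Fcer1g, the adaptor of Clec4n, was 128.1 and 108.5 CPM in samples 7-9 and 10-12 against 204 to 271 CPM in the other 4. Card9, which carries the signal to the NF-kB pathway, was 70.3 and 49.1 CPM there against 94.2 to 108.3 CPM, and the kinase Syk was 297.6 to 438.7 CPM with 7-9 the highest. Plcg2, Prkcd, Vav1 and Tyrobp lay at 130.5 to 314.2, 174.6 to 270.1, 222.6 to 258.1 and 138.7 to 153.9 CPM. In 5 of the 11, Plcg2 and Vav1 among them, samples 7-9 and 10-12 were the lowest pair, against 22.4% of all tested genes.

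Ligands and partners of clearance of dying cells were measured beside Mertk and Axl. Gas6, the bridging protein of both kinases, was 1.73 and 0.78 CPM in samples 7-9 and 10-12 and 5.60 to 9.97 CPM in the other 4. Pros1, which encodes protein S, was 6.77 CPM in sample 7-9 and 14.0 to 21.2 CPM in the other 5. Thbs1, a ligand of Cd36, was 1324 and 761.7 CPM in 7-9 and 10-12 and 2127 to 3537 CPM in the other 4. Anxa1, Rac1, Itgb5, Itgav and Elmo1, other genes of uptake and of the cytoskeleton behind it, lay at 290 to 362, 185.2 to 284.4, 118.8 to 225.2, 70.2 to 151.3 and 78.0 to 94.6 CPM. Of 11 tested genes of this list, 6 were higher in Mt1ko (3 on mean CPM), none called.

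In the other lists no gene was called. Fc and complement receptors had 6 of 10 higher in Mt1ko (2 on mean CPM), phagocyte lysosome genes 10 of 11 (6), the lipid receptor programme 3 of 11 (2) and the regulators 3 of 14 (0). Samples 7-9 and 10-12 were the lowest pair in 5, 3, 4 and 6 tested genes of these lists, against 22.4% of all tested genes. They were the highest pair in 1, 1, 1 and 0, against 11.4% of all tested genes. The 2 most abundant genes of the first 3 lists did not share an order. Itgam was 3005 and 1926 CPM in 7-9 and 10-12 against 3047 to 3630 CPM, and Itgb2 2234 and 1394 against 1518 to 1746 CPM. Ctsd was 2495 and 2113 against 1980 to 2556 CPM, and Ctsb 2373 and 1814 against 1675 to 2221 CPM. Lpl was 508.6 and 587.7 against 627.9 to 972.2 CPM, and Plin2 820.9 and 642.4 against 443.8 to 551.3 CPM. Of genes named for their order, Lgmn, a lysosomal protease, was 9.24 and 4.06 CPM in 7-9 and 10-12 against 72.8 to 105.2 CPM. Fcgr1, the high-affinity IgG receptor, was 0.43 and 1.49 CPM against 3.84 to 8.79 CPM. Irf4, a transcription factor of alternatively activated macrophages, was 0.17 and 0 CPM against 3.53 to 10.7 CPM, and Il4ra, which encodes a chain of the interleukin-4 receptor, 374.9 and 301.7 CPM against 822.6 to 983.9 CPM. Zeb2, Stat6, Cebpb and Mitf, the most abundant of the other regulators with Maf, varied within 677.2 to 872.8, 251.7 to 444.1, 145.0 to 264.8 and 124.0 to 210.8 CPM. Maf was 98.9 and 36.0 CPM in 7-9 and 10-12 against 177.8 to 234.8 CPM.

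**Figure D4:**
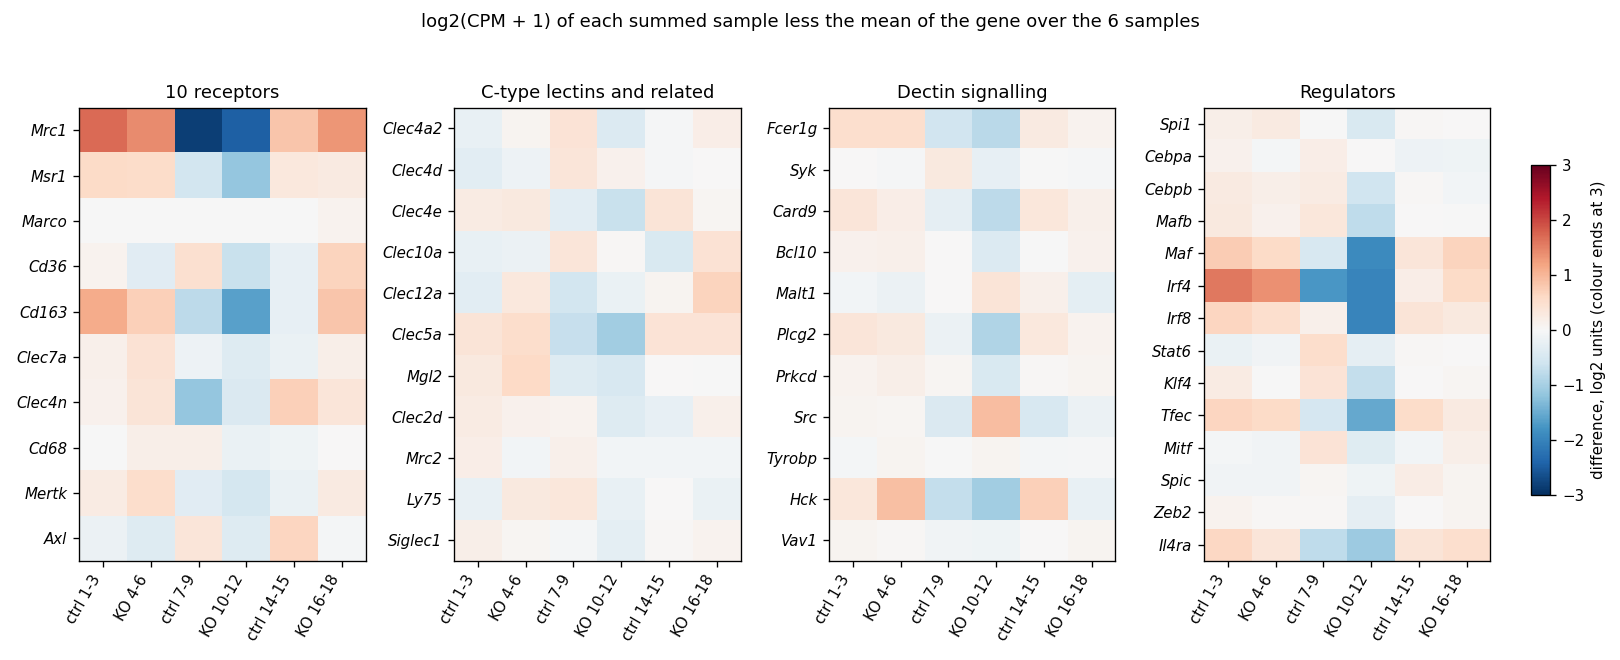
Difference of log2(CPM + 1) in each summed sample from the mean of that gene over the 6 samples (colour, log2 units, ending at 3), for the 10 receptors, C-type lectins and related receptors with a count, signalling partners of the Dectins, and regulators (KO, Mt1ko). The columns of samples 7-9 and 10-12 are blue for Mrc1, Irf4 and, in 10-12, Maf and Irf8, and pale for Cd68, Clec7a and Siglec1.

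Other markers moved with the same samples, and their part in the levels of the receptors was not tested. Of 8 tested markers of mast cells and basophils, 7 had samples 7-9 and 10-12 as their highest pair, an order that 11.4% of all tested genes had. The list of 10 summed to 873.7 and 4502 CPM there, against 171.4 to 708.3 CPM in the other 4. By group, the controls summed to 246.2 to 873.7 CPM, Mt1ko to 171.4 to 4502 CPM, and Prss34 was at 0. Of 5 tested markers of alternatively activated or alveolar macrophages, 4 had samples 7-9 and 10-12 as the lowest pair, against 22.4% of all tested genes. Among tested genes with a mean of at least 10 CPM that share was 32.0%. The list of 8 summed to 2958 and 1432 CPM in the pair against 5010 to 6005 CPM in the others. The range was 2958 to 6005 CPM over the controls, 1432 to 5803 CPM over Mt1ko, with Retnla, Ear2 and Ear1 at 0. Arg1, also of this list, was 188.7 CPM in sample 7-9 and 58.1 CPM in 10-12, against 132.1 to 202.7 CPM in the others. Fn1 made up most of the sum, at 2686 and 1291 CPM in samples 7-9 and 10-12 against 3153 to 4046 CPM. Chil3, which encodes a chitinase-like protein, was 51.8 and 53.6 CPM in the pair and 1511 to 1907 CPM in the other 4. The macrophage markers without the 10 receptors gave 3209 to 4987 CPM (control) or 2889 to 4051 CPM (Mt1ko), highest in samples 7-9 and 10-12, mostly from Hmox1. The monocyte markers gave 8876 to 10793 CPM (control) or 7137 to 9816 CPM (Mt1ko). The pair was the lowest in 6 of 8 tested, among them Ly6c2, Ccr2 and F13a1, against 22.4% of all tested genes. It was the highest in Lyz2 and Cx3cr1, against 11.4% of all tested genes. Of 8 tested neutrophil markers, 3 had samples 7-9 and 10-12 as the lowest pair, an order that 22.4% of all tested genes had. They were Elane (7.06 and 1.17 CPM against 27.8 to 83.9), Prtn3 (8.99 and 5.16 against 27.8 to 47.0) and Cxcr2 (0.88 and 0 against 3.96 to 8.09). S100a8, Mpo, Mmp8, Mmp9 and Ly6g did not have that order. Mpo was 6.14 and 0 CPM in the pair against 0.70 to 2.05 CPM, and Mmp8 198.2 and 145.3 against 169.2 to 227.1 CPM. Of 4 tested megakaryocyte genes, Pf4 (49.6 and 26.8 CPM against 118.2 to 220.1) and Ppbp (3.78 and 0 against 9.31 to 21.8) were lowest in the pair. Itga2b was highest there (43.3 and 156.7 CPM against 9.45 to 24.6), and Vwf was 12.6 and 61.5 CPM against 5.19 to 14.7 CPM. Of 5 tested erythroid markers, only Tfrc had the pair as its highest (96.5 and 77.1 CPM against 49.1 to 58.9). The others differed between samples 7-9 and 10-12: Hbb-bs was 13.7 and 1.07 CPM, Hba-a1 10.3 and 0, Alas2 1.96 and 0, and Klf1 0.04 and 2.75.

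Likeness was measured as Spearman's rho of TMM-scaled log2 CPM over the 17 libraries, which share 6 sums and are not independent, so no p is given. Among 10206 candidate genes, those like Mrc1 included Slc35b1 (rho 0.95) and Snx2 (0.93), those most like Msr1 were Gpt2 (0.96), Hif1a (0.95) and Mthfd2 (0.95), and those most like Cd163 were Pelo (0.92), Tenm4 (0.91) and Nckap5l (0.91). Clec7a was most like Gmfb (0.85), Bud31 and Cd28, Clec4n like H6pd (0.84), H2aj and Wfdc21, and Cd68 like Ruvbl2 (0.89), Pdp2 and Ifitm3. Among the receptors themselves, rho was 0.88 between Mrc1 and Msr1, 0.81 between Mrc1 and Cd163 and 0.76 between Msr1 and Cd163. It was 0.46 between Clec7a and Clec4n and 0.03 between Mrc1 and Cd68. Among the candidate genes ranked by likeness to Mrc1, Msr1 was number 61 and Cd163 number 333. In the ranking for Msr1, Mrc1 was number 171 and Cd163 number 808, so many other genes were more alike than these receptors.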

How the data were processed

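Total RNA from bone marrow was made into libraries with a stranded total RNA kit for very small inputs, per the labels' protocols. The submitters' processing notes name Trimmomatic 0.35 and RSEM 1.3.3 with the builds GRCm38 and mm10; neither the aligner, the strand setting nor the route to whole numbers is stated in what was used here. Deposited by the authors were unnormalized whole-number counts per gene for 17 libraries and for 6 sums, each of which equalled the sum of its libraries in all 56305 genes, of which 55141 matched GENCODE vM21. No row was without a gene, and the per-sample columns left unused numbered 0. Groups came from the sample titles.

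The 6 sums were tested with edgeR 4.0.16 (filterByExpr, TMM, quasi-likelihood F test, group alone, Benjamini-Hochberg over 16666 genes, threshold 0.05) in R 4.3.3. Standard errors are the log2 fold change over the root of F. Levels are CPM of all counts of a sample, not TMM-scaled, unless said. The fit was tested on 1 simulated data set, in which the share of false calls was above the threshold. In all, 5 promoter motifs were searched (PU.1, C/EBP, MAF, CACGTG and TATAAA). Depth was 27124722 to 38645072 counts per library; exact binomial intervals cover counting error only, since PCR copies cannot be told from molecules.

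The members and lists were chosen with earlier results of these data known. Named are all 10 members, up to 6 of each wider list by mean CPM, and the 3 genes most like each member averaging at least 1 CPM, except 2 genes that are not reported here; where a symbol had 2 identifiers, the one with more counts was used. Clec6a, listed among the lectins, was not found under that symbol. Genes named for the order of samples (such as Chil3, Lgmn, Fcgr1, Irf4 and Gas6), Card9, Pros1, Spi1 and single markers were chosen after their values were seen. The alternatives tried were scaling by RLE or by upper quartile, no filter or at least 1 CPM in every sample of a group, 17 libraries with and without the second index, DESeq2 1.42.0, limma-voom 3.58.1, leaving out each sum or library 6, and, chosen after seeing the data, leaving out samples 7-9 and 10-12 together. DESeq2 was first run on all genes with a count and then, after its calls had been seen, on the genes of the edgeR fit; both are given.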

Additional observations from a re-analysis of the deposited data

Results flagged for a closer look

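Of 19 groups of library values with any spread (8 control or 9 Mt1ko libraries for each receptor), 6 had 1 library standing well away from the others, where chance gives about 1 in 20 for independent values. The libraries of a sum are not independent, and where all others are at 0, as for Marco and Axl in Mt1ko, any count stands out, so the number is not to be read against chance. Library 17, labelled Mt1ko, held 3 of them: Marco at 0.27 CPM (0 in the other 8), Cd36 at 3.05 CPM (next 0.71) and Axl at 0.69 CPM (0 in the other 8). Cd36 was 2.95 CPM in control library 8 (next 1.12), and Mertk was 1.70 CPM in control library 2 (next 0.38). These 5 rest on 9 to 102 counts. Clec4n was 171.1 CPM in control library 15 (next 78.9), from 5257 counts, the library that was also lowest in Mrc1 of those outside samples 7-9 and 10-12.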

How the results depend on the processing

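No receptor and none of the 89 wider genes was called in any of the 17 alternatives. Over all genes, 1 gene was called in place of 0 with 17 libraries entered singly, with DESeq2 on the same genes and after removal of library 6 (Mt1 each time), and with samples 7-9 and 10-12 both left out (mt-Co3); leaving out each sum in turn called 0. DESeq2 on all genes with a count called 16, Mt1 among them; this run preceded the one on the same genes. Samples 7-9 and 10-12 were lowest in 5 receptors on each of the 3 scales. The median log2 fold change of the receptors was -0.21 to 0.32 over the alternatives, below 0 with limma-voom (-0.10) and without samples 7-9 (-0.21) or 16-18 (-0.14). The fitted sign of Cd68, Clec7a and Axl held in every alternative that tested them, but the unscaled mean CPM of Cd68 was lower in Mt1ko. Other signs turned, with none called: with limma-voom Cd163 (-1.60) and Mertk (-0.55); with the second index as covariate Mrc1 (-0.022); with samples 7-9 and 10-12 both left out Cd36 (0.79) and Clec4n (-0.053). Leaving out 1 sum gave ranges of -0.46 to 0.96 for Mrc1, -0.37 to 0.26 for Msr1, -0.35 to 1.32 for Cd163, -2.48 to 0.30 for Cd36, -0.21 to 0.63 for Clec4n, 0.014 to 1.64 for Mertk and -8.73 to -2.24 for Axl (-4.47 with limma-voom). Cd36, Cd163, Mertk and Axl were not tested in every alternative because of low counts. The cause of these turns was not tested. No paired analysis was possible because the titles give the groups no shared replicate numbers.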
